A study of Mus musculus with 8 samples.

Results

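The Ikaros family consists of the zinc finger transcription factors Ikaros (Ikzf1), Helios (Ikzf2), Aiolos (Ikzf3), Eos (Ikzf4) and Pegasus (Ikzf5). The members were taken as the rows whose Entrez identifiers map to these 5 genes, and all 5 were found among 11723 genes with a value. The libraries were stranded total RNA libraries of sorted CD8 T cells, taken from peripheral lymph nodes of BALB/c mice, an inbred strain, at 12 days of age. The wild-type group (WT) had 4 libraries, from pools of 5, 5, 3 and 2 mice and from 115000000, 28700000, 1300000 and 1300000 cells. The group lacking interleukin-2 (IL-2-KO) had the other 4, from 26700000, 42600000, 1100000 and 400000 cells, and its labels state no pooling. The series' design text calls the controls WT/HET, so heterozygous mice may be among the WT libraries, and it names the spleen as a second source, which the sample labels do not. The replicates are called biological there, but single litters, sort days and sequencing runs are not known here. No group received an agent, and an IL-2-KO mouse lacks the cytokine in all its cells, not in CD8 T cells alone.

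Ikaros family proteins bind DNA through zinc fingers near their start and pair with each other through fingers near their end, so that members can form mixed complexes. Ikaros, Helios and Aiolos are found mainly in blood cells and recruit chromatin remodelling and repressor complexes, chiefly NuRD (nucleosome remodelling and deacetylase). In T cells Ikaros is known as a repressor of the interleukin-2 gene, and Helios is known from regulatory T cells, from thymocytes under strong receptor signals and from subsets of activated or innate-like CD8 T cells.

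The kinship of Ikaros, Helios, Aiolos and Eos is visible in the sequence that encodes the DNA-binding fingers, which is given here for all 5 members. Shown are 63 coding bases of the second finger of the C2H2 type (a pair of cysteines, then a pair of histidines, holding a zinc ion) in each gene, from GENCODE transcripts on the build GRCm38, 5′ to 3′. Capitals mark the 21 bases that are the same in all 5 genes. They include bases that every finger of the C2H2 type must have.
Ikzf1, chr11:11754024-11754086, plus strand: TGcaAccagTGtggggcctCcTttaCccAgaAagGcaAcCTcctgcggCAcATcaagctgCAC
Ikzf2, chr1:69570581-69570643, minus strand: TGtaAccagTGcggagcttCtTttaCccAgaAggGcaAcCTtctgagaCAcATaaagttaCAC
Ikzf3, chr11:98488940-98489002, minus strand: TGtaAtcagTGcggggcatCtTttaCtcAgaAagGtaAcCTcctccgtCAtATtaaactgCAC
Ikzf4, chr10:128640229-128640291, minus strand: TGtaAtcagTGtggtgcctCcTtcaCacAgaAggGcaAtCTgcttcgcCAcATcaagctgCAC
Ikzf5, chr7:131392501-131392563, minus strand: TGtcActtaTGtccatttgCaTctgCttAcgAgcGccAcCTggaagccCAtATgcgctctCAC
In this stretch Ikzf2 was identical to Ikzf1 at 51 bases, to Ikzf3 and to Ikzf4 at 48 each, and to Ikzf5 at 30. The last C2H2 match in the Ikzf2 coding sequence, at bases 1435 to 1497 near its end, also matched this Ikzf2 stretch at 30 bases. The stretch therefore shows no kinship of Pegasus beyond the finger type. Pegasus was thus the member least like Helios here, and it is known to bind other DNA sites than the other members.

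The same sequences bear on how far reads can be told apart between paralogs. Over the 10 pairs of members, the longest run of bases that both coding transcripts share exactly was of 11 to 26 bases, and of 11 to 20 in the pairs with Ikzf2. The run of 26 lies in the coding parts of Ikzf1 (chr11:11769483-11769508, plus strand) and Ikzf3 (chr11:98467059-98467084, minus strand) and reads as follows.
Ikzf1 and Ikzf3: gatccctttgagtgtaacatgtgtgg
The read length is not known here. The deposited values are single numbers per gene, so the isoforms of Ikaros and Helios that lack DNA-binding fingers, and act against the full-length proteins, are summed with the others.

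Levels are given as counts per 1000000 of the library size scaled by TMM, the trimmed mean of M-values (CPM), as deposited, with mean ± SD over n = 4 libraries per group. The libraries held 1.19e+07 to 1.84e+07 counts over the genes listed, and 1 CPM stood for 11.9 to 18.6 counts. The targeted gene Il2 was at 5.88 ± 0.268 CPM in WT and 6.28 ± 1.92 in IL-2-KO (limma adjusted p = 0.907, Benjamini-Hochberg), and a value per gene does not show whether these reads come from the part that was deleted. T cell identity was clear in every library, where 10 T cell markers such as Cd3e and Cd8a summed to 7508 to 8419 CPM in WT and 6538 to 7571 in IL-2-KO. Of these markers Thy1 alone passed, and it fell from 961 ± 42.6 to 679 ± 27.0 CPM (limma adjusted p = 0.00117). WT replicate 2 and IL-2-KO replicate 3 stood apart from the other 6 libraries. Cd4 was at 38.6 and 45.5 CPM in them and at 0.461 to 2.48 in the others, and Lyz2, a myeloid gene, was at 39.97 and 296 CPM against 0.230 to 2.85.

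Helios was the member that rose. Ikzf2 (Entrez 22779, chromosome 1, 69531207 to 69687351 of GRCm38) was at 105, 87.2, 94.1 and 78.8 CPM in WT replicates 1 to 4. In IL-2-KO replicates 1 to 4 it was at 168, 199, 176 and 146 CPM. Every IL-2-KO library was above every WT library, which was so for 12.9% of all genes tested, while 24.2% had groups that did not overlap in either direction. The group means were 91.4 ± 11.3 and 172 ± 21.7 CPM, a rise of 0.91 ± 0.11 (SE) on the log2(CPM + 0.5) scale or 1.88-fold, with a 95% confidence interval from 0.66 to 1.16 (limma adjusted p = 4.47e-04, Benjamini-Hochberg over 11530 genes tested). This scale slightly understates changes of low genes. Each value rested on 1035 to 3300 counts, so counting error was small beside the spread between libraries. Ikzf2 was the member that passed at an adjusted p under 0.05, 1 of 5, against 19.2% of all genes tested. Of all genes tested 11.1% were higher and 8.03% lower in IL-2-KO, and a change of at least this size in either direction was seen for 6.05% of them. The family's count was therefore near that of genes at large.

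**Figure D1:**
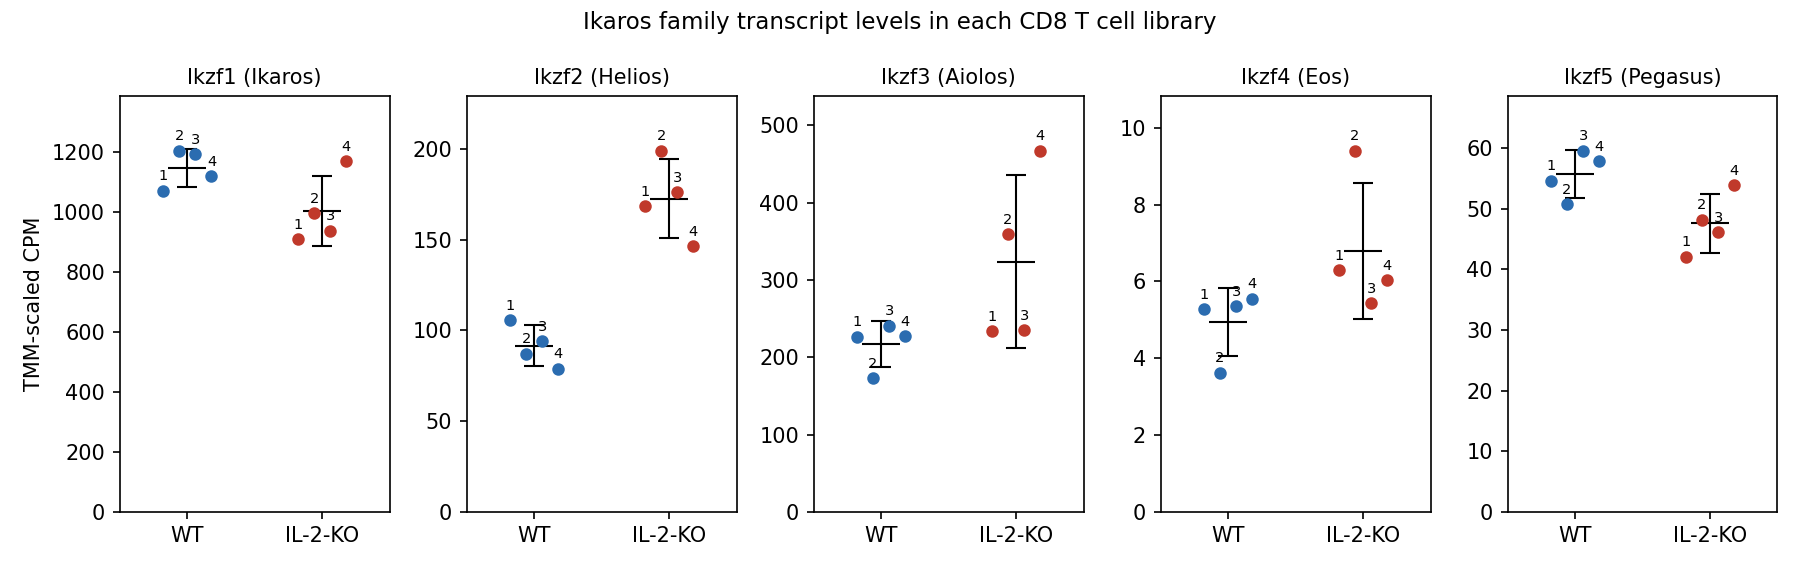
TMM-scaled CPM (linear axes from 0) of the 5 Ikaros family genes in each WT (blue) and IL-2-KO (red) library, numbered by replicate, with group mean and SD in black. Ikzf2 is the gene whose groups do not overlap (highest WT library 105, lowest IL-2-KO library 146 CPM), and the IL-2-KO values of Ikzf3 spread from 233 to 467.

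In bulk libraries more cells carrying a transcript and more transcript per cell cannot be told apart. The rise of Ikzf2 was as large without the libraries that stood apart. With WT replicate 2 and IL-2-KO replicate 3 left out it was 0.88 on the log2 scale (limma adjusted p = 0.00392), and without the 4 libraries of under 2000000 cells it was 0.93 (limma adjusted p = 0.0149).

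Aiolos, the paralog known from mature B cells and from T cells at later stages, showed its spread in the IL-2-KO group. Ikzf3 (Entrez 22780, chromosome 11, 98464610 to 98546031) was at 227, 173, 241 and 227 CPM in WT replicates 1 to 4. The IL-2-KO replicates held 233, 359, 235 and 467 CPM. Replicates 1 and 3 of IL-2-KO lay within the WT range, while replicates 2 and 4 lay above all WT libraries. The means were 217 ± 30.02 and 324 ± 112 CPM, a difference of 0.52 ± 0.21 (SE) on the log2 scale (95% interval 0.05 to 1.00) that did not pass (limma adjusted p = 0.115). The coefficient of variation was 34.7% in IL-2-KO and 13.8% in WT. With trends of GC content and length removed from each library the difference passed (0.56, limma adjusted p = 0.0390), as it did with array weights (0.66, adjusted p = 0.00177), so its call depends on the processing. With 1 library left out the difference was 0.33 to 0.66 and did not pass, and the lowest value, 0.33, was without IL-2-KO replicate 4.

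Ikaros itself was the most abundant member. Ikzf1 (Entrez 22778, chromosome 11, 11684962 to 11772930) was at 1072, 1206, 1195 and 1120 CPM in WT and at 909.98, 997, 938 and 1171 CPM in IL-2-KO. The first 3 IL-2-KO libraries were under all WT libraries, and replicate 4 lay among them. The means, 1148 ± 63.3 and 1004 ± 117 CPM, differed by -0.20 ± 0.10 (SE) on the log2 scale (95% interval from -0.42 to 0.02, limma adjusted p = 0.189). This interval leaves room for a fall of up to 0.42, and it does not contain a rise of the size seen for Ikzf2.

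Eos, a partner of the regulatory T cell factor Foxp3, was scarce. Ikzf4 (Entrez 22781, chromosome 10, 128630839 to 128669671) was at 5.27, 3.62, 5.35 and 5.55 CPM in WT and at 6.30, 9.40, 5.43 and 6.04 in IL-2-KO. The groups overlapped, and IL-2-KO replicate 2 held the highest value. The means were 4.95 ± 0.891 and 6.79 ± 1.78 CPM (log2 difference 0.41 ± 0.20 SE, 95% interval from -0.03 to 0.85, limma adjusted p = 0.182). With 1 library left out the difference was 0.25 to 0.50, lowest without IL-2-KO replicate 2, and without the 4 libraries of under 2000000 cells it was 0.75 (limma adjusted p = 0.317). The values rested on 43 to 156 counts per library, so relative counting error was larger here than for any other member.

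Pegasus, the distant member, was at 54.6, 50.7, 59.6 and 57.9 CPM in WT and at 42.1, 48.2, 46.2 and 53.9 in IL-2-KO (Ikzf5, Entrez 67143, chromosome 7, 131388649 to 131410518). Replicate 4 of IL-2-KO was within the WT range and the other 3 were under it. The means were 55.7 ± 3.90 and 47.6 ± 4.93 CPM, with a log2 difference of -0.23 ± 0.09 (SE; 95% interval from -0.44 to -0.02, limma adjusted p = 0.117). The annotated exons of Ikzf5 share 4652 bases with Pstk, a selenocysteine synthesis gene on the opposite strand, and the strand setting used in counting is not known here. Pstk was at 35.4 ± 4.26 CPM in WT and 25.5 ± 0.895 in IL-2-KO, and fell by 0.46 on the log2 scale (limma adjusted p = 0.0108). Reads of the pair may be shared, so the values of Ikzf5 are uncertain. Ikzf2 shares 144 exon bases and Ikzf4 37 with predicted antisense genes that have no value here, and Ikzf1 and Ikzf3 share none.

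**Figure D2:**
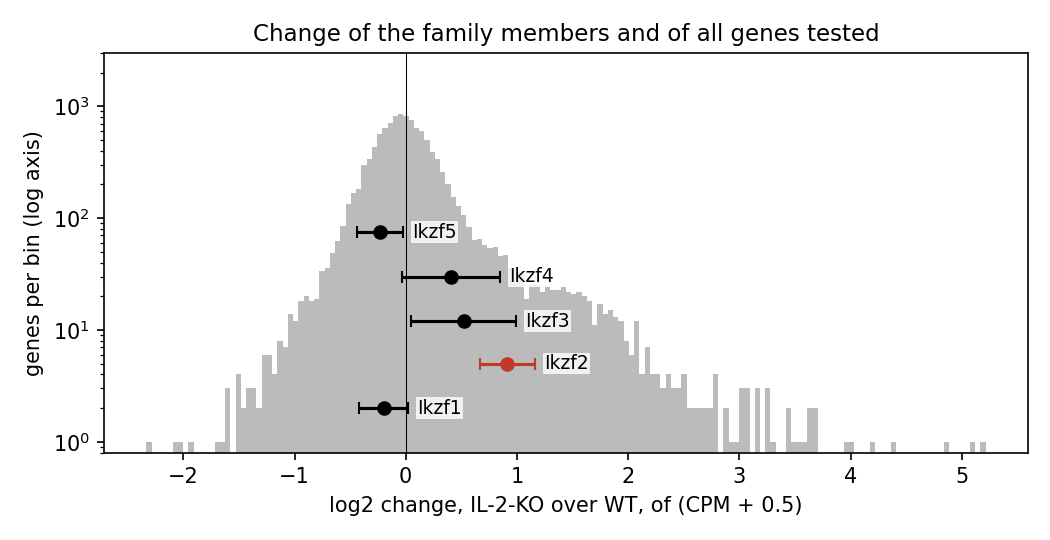
Log2 change, log2(CPM + 0.5) in IL-2-KO minus that in WT, of each family member (point, with its 95% confidence interval from limma; red passes at an adjusted p under 0.05, heights are arbitrary) over the histogram of all 11530 genes tested (grey, log axis). Ikzf2 stands at 0.91 in the upper tail, while the intervals of Ikzf1 and Ikzf4 include 0.

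Levels of different genes can be compared only per length, so CPM was divided by the length of the joined annotated exons in kilobases (kb). In WT the order was Ikzf1 with 199 ± 10.95 CPM per kb, Ikzf3 with 24.8 ± 3.43, Ikzf5 with 9.74 ± 0.683, Ikzf2 with 7.87 ± 0.972 and Ikzf4 with 0.825 ± 0.149. The neighbours Ikzf5 and Ikzf2 overlapped in WT (8.87 to 10.4 and 6.78 to 9.08 CPM per kb), and the other neighbours did not. With the length of the longest coding transcript instead, Ikzf5 and Ikzf2 did not overlap in WT (11.45 to 13.45 and 8.49 to 11.37). In IL-2-KO, Ikzf2 with 14.9 ± 1.86 CPM per kb stood next after Ikzf3, above Ikzf5 with 8.32 ± 0.862 in every library (12.6 to 17.1 against 7.35 to 9.42). Ikzf1 was at 174 ± 20.2, Ikzf3 at 37.0 ± 12.8 and Ikzf4 at 1.13 ± 0.297 CPM per kb. The order of Ikzf5 and Ikzf2 rests on values of Ikzf5 that are uncertain through the overlap with Pstk.

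As a share of the family's summed CPM per kb, Helios made up 3.93%, 3.06%, 3.19% and 2.85% in WT replicates 1 to 4. The IL-2-KO replicates had Helios shares of 7.004%, 7.12%, 7.11% and 4.52%, all above the WT ones. Ikaros made up 82.1% ± 2.02 in WT and 74.1% ± 2.30 in IL-2-KO, and Aiolos 10.3% ± 1.48 and 15.4% ± 3.21. These shares are descriptions with no test, and they depend on the exon length. With the longest coding transcript instead, which leaves out non-coding transcripts, Aiolos made up 19.4% in WT and 27.6% in IL-2-KO and Ikaros 72.9% and 62.4%, while Helios made up 3.23% and 6.08%.

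**Figure D3:**
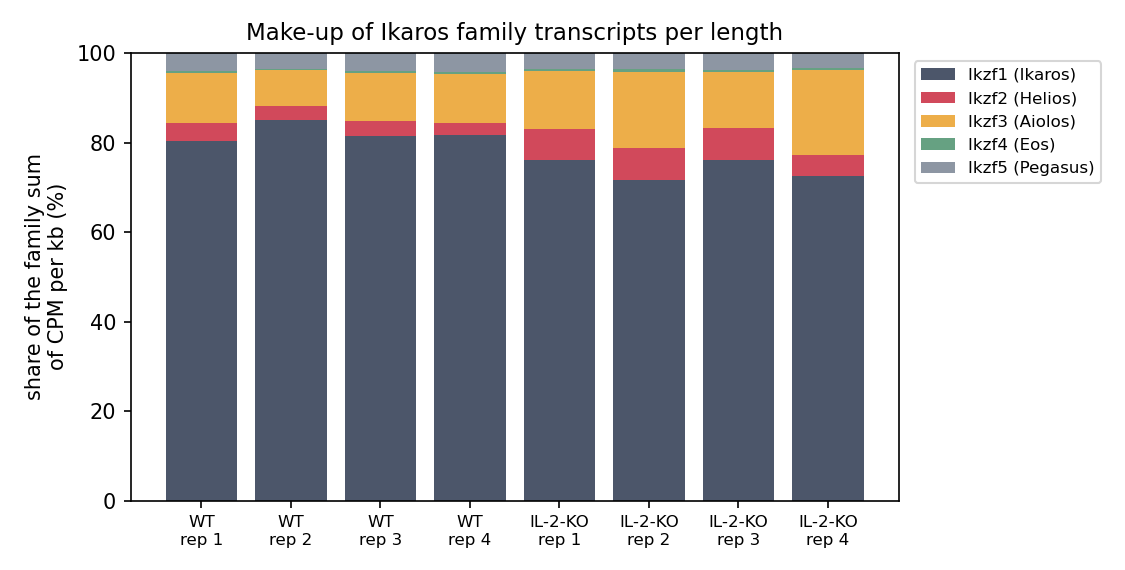
Share (%) of each Ikaros family gene in the family's summed CPM per kb of joined exons, 1 bar per library. Ikzf1 takes most of every bar, and the red Ikzf2 segment is 2.85% to 3.93% in WT and 4.52% to 7.12% in IL-2-KO.

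Whether Helios moved apart from its paralogs was asked with ratios within a library, which do not depend on the library's scaling. The ratio of Ikzf2 to Ikzf1 was 0.0983, 0.0724, 0.0788 and 0.0703 in WT and 0.185, 0.1995, 0.188 and 0.125 in IL-2-KO. All IL-2-KO ratios were above all WT ratios, and the mean log2 ratio differed by 1.11 (a 2.16-fold change). The ratio to Ikzf5, whose values are uncertain through the overlap with Pstk, behaved alike. It was 1.36 to 1.93 in WT and 2.72 to 4.13 in IL-2-KO (2.20-fold). For both, the exact two-sided permutation p was 0.0286, the smallest that 70 assignments can give, and 0.0571 after Benjamini-Hochberg adjustment over the 4 ratios, so neither passed. The ratio to Ikzf4 was 14.2 to 24.1 in WT and 21.2 to 32.4 in IL-2-KO, overlapping (exact permutation p = 0.0571, adjusted 0.0762). The ratio to Ikzf3 was 0.346 to 0.504 in WT and 0.314 to 0.749 in IL-2-KO (log2 difference 0.39, exact permutation p = 0.314, also after adjustment). That a rise of Helios exceeded the change of Aiolos was therefore not shown. IL-2-KO replicate 4, with the highest Ikzf3 and the lowest Ikzf2 of its group, had the lowest of all 8 Ikzf2 to Ikzf3 ratios, and without it this ratio differed by 0.66 with no overlap between groups (exact permutation p = 0.0381 after adjustment). With any other library left out it differed by 0.24 to 0.47 and did not pass (exact permutation p from 0.229 to 0.543 after adjustment).

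**Figure D4:**
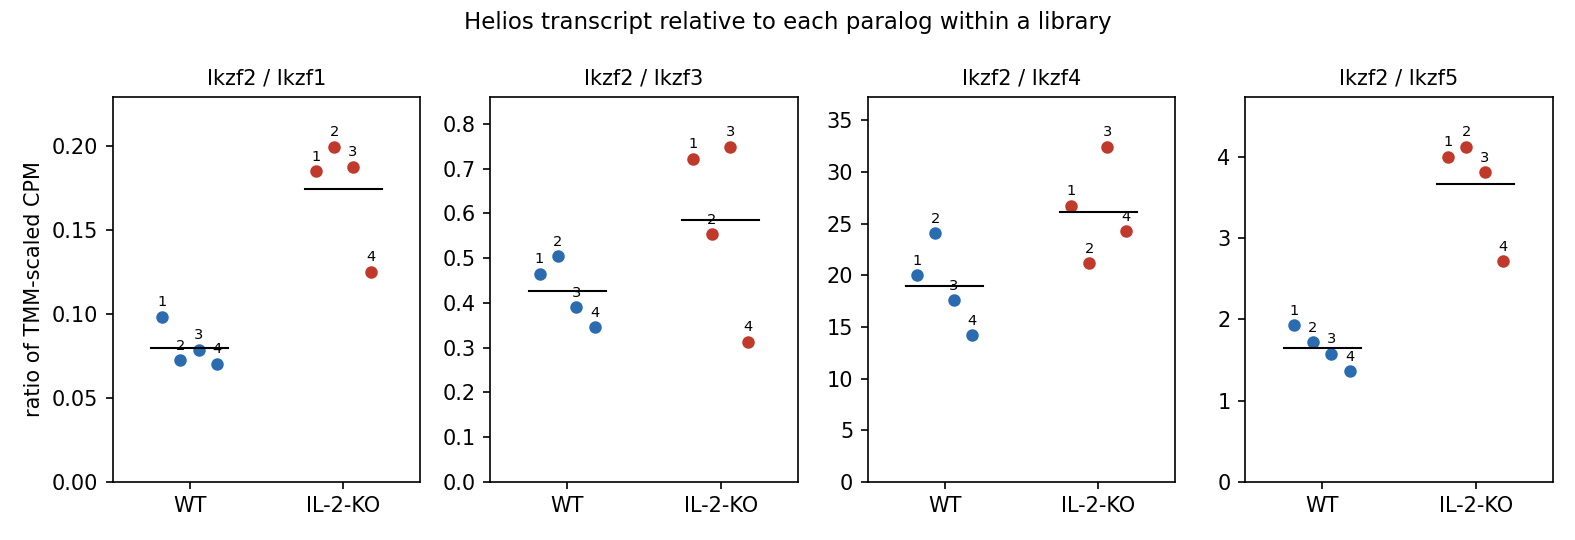
Ratio of the TMM-scaled CPM of Ikzf2 to that of each paralog in each library (linear axes from 0, numbers are replicates, lines are group means; WT blue, IL-2-KO red). The groups are apart for Ikzf1 and Ikzf5 and overlap for Ikzf3 and Ikzf4.

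The genes whose pattern was most like that of Helios were ranked by Pearson's r of log2 values over the 8 libraries, as a description, among 8874 genes with a mean of at least 10 CPM. Since these libraries fall into 2 groups, genes that differ between the groups rank high. The nearest were Cdc6 (r = 0.98), which loads the replicative helicase at origins, and Mcm7 (r = 0.98), a subunit of that helicase. Next came Gcnt1 (r = 0.98), a glycosyltransferase of selectin ligands, and Pkm (r = 0.98), the pyruvate kinase of glycolysis. Around the group means their r with Ikzf2 was 0.83, 0.89, 0.78 and 0.76. Gcnt1 met the limit of 10 CPM only through the IL-2-KO libraries, at 1.31 ± 0.748 CPM in WT and 22.7 ± 10.2 in IL-2-KO. Cdc6 rose from 10.2 ± 1.36 to 25.8 ± 3.38 CPM (limma adjusted p = 1.87e-04) and Mcm7 from 81.7 ± 3.65 to 129 ± 5.76 (limma adjusted p = 1.48e-04). For Aiolos the nearest were Rap2a, a small GTPase (r = 0.99), Dnaja4, a co-chaperone (r = 0.98), Sema4d, a semaphorin (r = 0.97), and Rbl2, a pocket protein of quiescent cells (r = 0.97). None of these 4 genes passed between the groups, with limma adjusted p from 0.105 for Rap2a to 0.390 for Dnaja4. Like Ikzf3 they were highest in IL-2-KO replicates 4 and 2, and Rap2a was at 27.9 and 24.4 CPM there against 15.7 to 19.7 in the other 6 libraries.

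Regulatory T cells carry much Helios and Eos. Foxp3, their defining gene, was at 4.49, 3.96, 4.26 and 3.92 CPM in WT and at 2.88, 3.56, 2.69 and 2.80 in IL-2-KO, below WT in every library, a difference that did not pass (log2 difference -0.43, limma adjusted p = 0.0750). Of 8 regulatory T cell markers 7 had a value, and their summed level was 47.8 to 87.1 CPM in WT and 105 to 248 in IL-2-KO. Ctla4 was the largest part of each IL-2-KO sum, while Il2ra, Tnfrsf18 and Tnfrsf4 did not pass (limma adjusted p = 0.935, 0.705 and 0.344). The highest sums of each group were in WT replicate 2 and IL-2-KO replicate 3. Ctla4, an inhibitory receptor that activated T cells carry too, was at 6.59, 30.8, 12.5 and 5.79 CPM in WT and at 62.4, 51.5, 171 and 66.7 in IL-2-KO, and it rose (limma adjusted p = 0.00447), with the highest value of each group again in those libraries. Nrp1, a semaphorin receptor also found on activated T cells, was at 0.479, 2.78, 0.691 and 0.784 CPM in WT and at 9.84 to 14.2 in IL-2-KO, and it passed the filter on low values through the IL-2-KO libraries. Gpr83, a receptor of regulatory T cells, fell by 1.17 on the log2 scale (limma adjusted p = 0.00351). The markers thus went both ways, and the part of regulatory T cells in the levels of Ikzf2 and Ikzf4 was not tested.

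Aiolos is also a B cell gene. Of 12 B cell markers 4 had a value, and Ms4a1 and Pax5 were among those without one. The 4 summed to 19.2 to 35.9 CPM in WT and 131 to 190 in IL-2-KO, and Cd22 alone passed. Cd22 was at 4.68 ± 3.49 CPM in WT and 130 ± 31.7 in IL-2-KO, where it made up most of the sum. Cd79a was at 5.48 ± 2.47 and 5.33 ± 5.03 CPM (limma adjusted p = 0.720). Natural killer markers, 5 of 9 with a value and Ncr1 without one, summed to 111 to 162 CPM in WT and 355 to 590 in IL-2-KO, with 3 that rose. Most of the IL-2-KO sum was Eomes and Gzma, with means of 292 and 129 CPM there and 131 and 3.30 in WT. Klrb1c and Tyrobp did not pass. Myeloid and dendritic markers, 8 of 14 with a value, summed to 281 to 291 CPM in WT and 157 to 571 in IL-2-KO, the highest in replicate 3. Most of the WT sum was Ccr9, a chemokine receptor that T cells carry too, at 153 to 263 CPM in WT and 72.5 to 139 in IL-2-KO, and it fell (limma adjusted p = 0.00967). Irf8, a factor of dendritic and activated T cells, rose (limma adjusted p = 0.0178). In thymocyte markers 3 of 7 had a value, and Rag1, Rag2 and Dntt had none. Erythroid markers (4 of 6 with a value) summed to 14.7 to 94.9 CPM in WT and 9.76 to 43.5 in IL-2-KO, and none of them passed. The part of such cells in the levels of Ikzf3 was not tested.

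**Figure D5:**
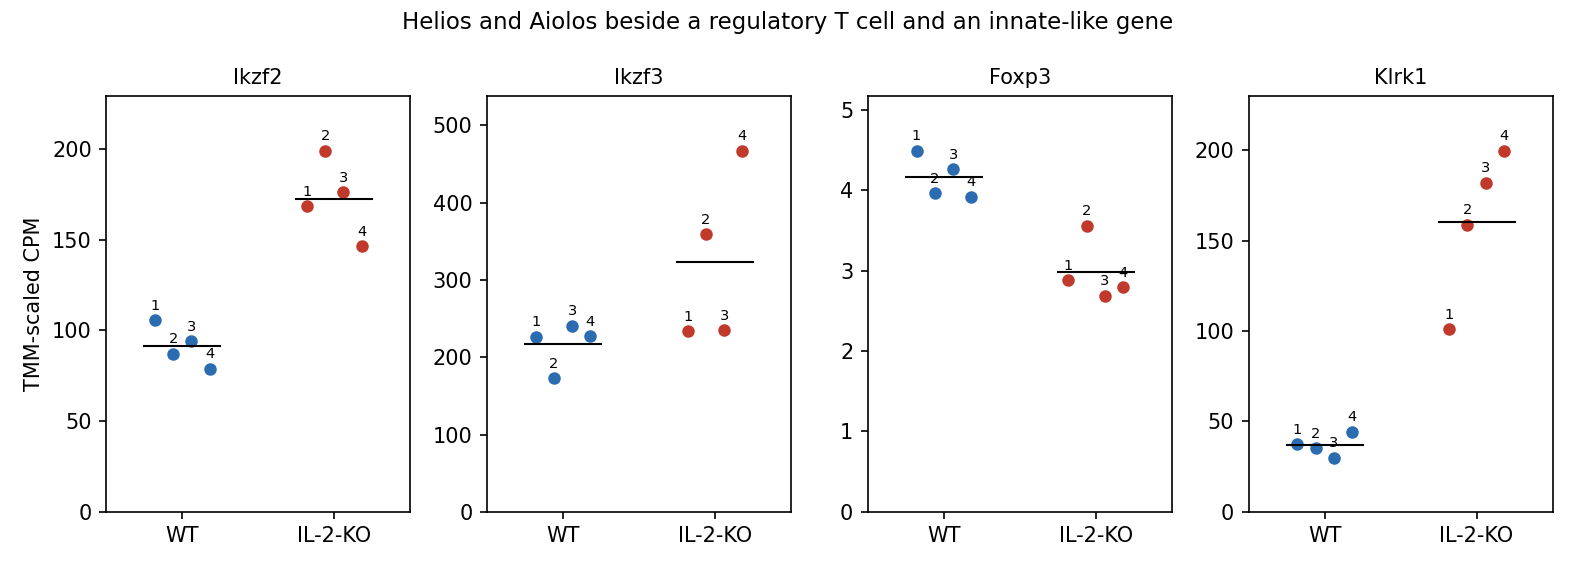
TMM-scaled CPM (linear axes from 0, lines at group means) of Ikzf2, Ikzf3, the regulatory T cell gene Foxp3 and the innate-like T cell receptor gene Klrk1 in WT (blue) and IL-2-KO (red) libraries, numbered by replicate. Foxp3 is lower in each IL-2-KO library (2.69 to 3.56 CPM) than in any WT library (3.92 to 4.49), though its difference did not pass (limma adjusted p = 0.0750) and it is 1 of 7 regulatory T cell markers with a value, which went both ways. Ikzf2 and Klrk1 are higher in each IL-2-KO library.

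Helios is known from innate-like and Ly49-bearing CD8 T cells, and most genes of a list for these cells were higher. Of its 19 genes 14 passed the filter on low values, and 2 of these, Klra7 and Klrb1c, did so through the IL-2-KO libraries, with at most 1 WT library at 1 CPM or more. Of the other 12 genes 8 rose and none fell, with a median log2 change of 1.024 beside -0.0097 over all genes tested. Klra3, Klrd1, Cd244a and Tyrobp did not pass (limma adjusted p = 0.107, 0.206, 0.624 and 0.780). The log2 differences of Klrd1 and Cd244a were -0.26 and -0.21. Among all genes tested 11.1% were called higher and 8.03% lower. Klrk1, the activating receptor NKG2D, was at 30.03 to 44.3 CPM in WT and 101 to 200 in IL-2-KO, a 4.23-fold rise (limma adjusted p = 1.21e-04). Eomes, a T-box factor of memory and natural killer cells, rose 2.18-fold (131 ± 20.6 to 292 ± 75.3 CPM), and Cd160, a receptor for MHC class I and HVEM, 1.96-fold (45.3 ± 6.30 to 90.4 ± 18.8), with limma adjusted p of 0.00184 and 0.00213. Klra7, an inhibitory receptor of the Ly49 type, was at 0.548 to 0.844 CPM in WT and 1.67 to 3.72 in IL-2-KO. Klra genes are near-identical in parts and their reads may be split. Klra1, Klra6, Klra9, Fcer1g and Zbtb16 had no value. The list was written with earlier results of these data known, and 4 of its genes (Klrb1c, Eomes, Tyrobp and Fcer1g) are in the natural killer list too. The part of such cells in the level of Ikzf2 was not tested.

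Strong receptor signals induce Helios in developing T cells, and 20 genes of T cell receptor signal strength and negative selection were listed. All 20 were tested, 3 rose and none fell, with a median log2 change of 0.02. The count was near the background of 19.2% called over all genes tested. Irf4, a transcription factor graded by receptor signals, rose 2.88-fold (24.1 ± 2.83 to 70.2 ± 6.64 CPM, limma adjusted p = 5.41e-05). Pdcd1, encoding PD-1, rose 6.56-fold (3.76 ± 1.93 to 26.5 ± 8.12, limma adjusted p = 2.31e-04) and Tnfrsf9, encoding 4-1BB, 2.06-fold (16.8 ± 3.58 to 34.7 ± 4.65, limma adjusted p = 0.00142). Egr2, a zinc finger factor downstream of calcium signals, was at 17.4 ± 0.968 and 23.4 ± 4.57 CPM (limma adjusted p = 0.0695).

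The NuRD complex, through which Ikaros proteins act on chromatin, had 14 subunit genes with a value. All 14 were tested, and 2 rose while 1 fell, with a median log2 change of 0.02. This count was near the background of 19.2% called over all genes tested. Rbbp7, a histone chaperone subunit, rose 1.195-fold (228 ± 6.98 to 273 ± 13.4 CPM, limma adjusted p = 0.0191), and Cdk2ap1, a small subunit, 1.42-fold (39.3 ± 3.23 to 56.7 ± 10.8, limma adjusted p = 0.0236). Mta3, a scaffold subunit, fell by 0.26 on the log2 scale (166 ± 5.42 to 139 ± 13.4, limma adjusted p = 0.0379). Chd4, the remodelling ATPase, was at 673 ± 77.5 and 689 ± 83.2 CPM (limma adjusted p = 0.877), and Chd3, its paralog, at 281 ± 31.0 and 385 ± 104 (limma adjusted p = 0.132). With IL-2-KO replicate 3 and WT replicate 2 left out there were 3 higher and 0 lower, and with the replicate number as a block 0 higher and 0 lower.

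Of 15 genes tested for other corepressors, the kinase CK2, the phosphatase PP1 and the cereblon ubiquitin ligase, 1 rose and none fell, with a median log2 change of 1.0e-04. The background was 19.2% called over all genes tested. Csnk2b, the regulatory subunit of CK2, a kinase that phosphorylates Ikaros, rose 1.19-fold (99.3 ± 3.70 to 119 ± 9.06 CPM, limma adjusted p = 0.0361). The catalytic subunit Csnk2a1 was at 216 ± 8.12 and 191 ± 13.7 (limma adjusted p = 0.103). Ddb1, of the cereblon ligase, was at 270 ± 20.6 and 322 ± 48.8 (limma adjusted p = 0.156), and the remodelling ATPase Smarca4 at 239 ± 20.3 and 266 ± 17.5 (limma adjusted p = 0.217). With IL-2-KO replicate 3 and WT replicate 2 left out, or with the replicate number as a block, no gene of this list passed in either direction.

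Among 21 genes linked to Ikaros in work on lymphocytes 12 were tested, of which 4 rose and 1 fell, with a median log2 change of 0.18. The background was 19.2% called over all genes tested, with 11.1% higher and 8.03% lower. Notch1, a receptor of T lineage commitment whose targets Ikaros restrains, rose 1.41-fold (199 ± 5.73 to 281 ± 28.2 CPM, limma adjusted p = 0.00217), and Dtx1, a Notch target, 1.88-fold (127 ± 12.3 to 246 ± 71.3, limma adjusted p = 0.00648). Tbx21, encoding the effector T-box factor T-bet, rose 2.41-fold (17.0 ± 5.91 to 40.01 ± 4.22, limma adjusted p = 0.00285). Foxp1, a factor of naive T cell quiescence, fell by 0.59 on the log2 scale (382 ± 38.9 to 252 ± 17.7, limma adjusted p = 0.00139). The fourth gene that rose was Ifng. These genes went both ways, and the list does not separate genes that Ikaros represses from genes that it activates.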

How the data were processed

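RNA-seq of 8 libraries was analysed from the table of 11723 genes that the authors deposited. Its values are a signal, counts per 1000000 of the TMM-scaled library size, as the authors named the table. Per the submitters' processing notes, R 3.4.3, limma 3.34.9 and featureCounts were used, with the builds mm10 and GRCm38. The aligner and strand setting are not given in the sources used here. Low genes had been left out before deposit. The values step by hundredths of a read, the form of fractional counting, so 54.6% to 65.0% of values under 20 were whole reads (within 0.001), no count test was run, and depth was read from the steps.

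Values were analysed as log2(value + 0.5) for 11530 genes with at least 1 in 4 of 8 libraries, by limma 3.58.1 in R 4.3.3 with a mean-variance trend and Benjamini-Hochberg adjustment (threshold 0.05). Ratios were tested by exact two-sided permutation. Identifiers were matched to RefSeq symbols (11651 matched, 72 not). Exon lengths and sequences came from GENCODE M21 on GRCm38. No libraries were duplicates. The members and lists were chosen with earlier results of these data known. Named genes were the members, Il2, the 4 genes of each list with the smallest adjusted p, and the 4 genes most like Ikzf2 and Ikzf3. Marker genes, Pstk, Chd4 and Ifng were added after their values were seen. The steps were tested on simulated data. Alternatives were other pseudocounts, filters, scalings, weights, covariates, blocks and left-out libraries. Intervals of counts cover counting error only, and without molecular identifiers reads are not independent molecules.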

Additional observations from a re-analysis of the deposited data

Results flagged for a closer look

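Groups of 4 libraries were examined by Dixon's test for 47 of the named genes, 34 of them named by rule, and for 4 ratios. In 13 of 102 groups a library lay far from the other 3, where chance gives about 1 in 20. The flagged genes other than Ikzf4, Dtx1 and Smarca4 were added after their values were seen, so this count cannot be set against chance. In 11 of the 13 groups the far library was WT replicate 2 or IL-2-KO replicate 3, and Cd4 and Lyz2 were named because they stand apart there. Ikzf4 was at 3.62 CPM in WT replicate 2 against 5.27 to 5.55 in the other WT libraries. In the same library Cd4 was at 38.6 CPM against 0.461 to 1.68, Lyz2 at 39.97 against 0.230 to 0.569, Nrp1 at 2.78 against 0.479 to 0.784 and Ccr9 at 153 against 251 to 263. In IL-2-KO replicate 3, Smarca4 was at 240 CPM, where the others of its group held 272 to 278. Cd4 was at 45.5 CPM there against 0.978 to 2.48, Lyz2 at 296 against 1.34 to 2.85, Ifng at 39.3 against 15.5 to 18.4, Ctla4 at 171 against 51.5 to 66.7 and Cd79a at 12.8 against 2.18 to 3.47. Dtx1 was at 145 CPM in WT replicate 1 against 119 to 123, and Cd22 at 178 in IL-2-KO replicate 4 against 111 to 119.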

How the results depend on the processing

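The rise of Ikzf2 passed under all 21 alternatives, at 0.84 to 1.05 on the log2 scale (limma adjusted p from 3.85e-05 to 0.0149). Ikzf1 passed under none (-0.28 to -0.14, lowest adjusted p = 0.0568). With array weights Ikzf3 (0.66), Ikzf4 (0.55) and Ikzf5 (-0.23) passed, and Ikzf3 also after removal of GC content and length trends (0.56). No direction of a member was reversed. The number of genes passing was 2211, but 4359 with array weights, 361 without the 4 libraries of under 2000000 cells, 1284 to 2184 with 1 library left out (1284 without WT replicate 3, 1350 without WT replicate 4, the others within 1.5 times) and 1397 with the replicate block. The share of calls that were higher in IL-2-KO went from 58.1% to 51.6% with a median shift, 48.9% with quantile normalization and 51.4% with array weights, but 65.2% with the block, 65.97% without WT replicate 3, 65.6% without WT replicate 4 and 82.5% without the low-cell libraries. The log2 ratio of Ikzf2 to Ikzf1, Ikzf4 and Ikzf5 passed with a pseudocount of 2 (1.0999, 0.57 and 1.12). It also did by limma on values relative to Ikzf2 (1.11, 0.50 and 1.14), a fit in which all genes share the deviations of Ikzf2 and 10493 of 11529 passed. With 1 library left out the 4 differences were 1.04 to 1.26 (Ikzf1), 0.24 to 0.66 (Ikzf3), 0.38 to 0.61 (Ikzf4) and 1.05 to 1.28 (Ikzf5). Those to Ikzf1 and Ikzf5 passed without IL-2-KO replicate 4 or without WT replicate 2, that to Ikzf4 without WT replicate 2 and that to Ikzf3 without IL-2-KO replicate 4, since adjustment over 4 ratios depends on how many reach the smallest p. The titles number the replicates of both groups, but same-numbered libraries did not deviate together (correlation from -0.53 to 0.39, and 2 of 8 libraries correlated best with their own number). With the replicate block Ikzf2 passed (adjusted p = 0.00227) and the other members did not, NuRD genes had 0 higher and 0 lower and the other regulators 0 higher. With IL-2-KO replicate 3 and WT replicate 2 both left out, NuRD genes had 0 lower and the other regulators 0 higher. The cause of these changes was not tested. With the longest coding transcript, added after seeing the data, Ikzf1 made up 72.9% and 62.4% and Ikzf3 19.4% and 27.6% of the family. With 4 libraries per group the exact tests cannot go below 0.0286, and depth limits Ikzf4 most.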
